A study of Mus musculus with 12 samples.

Results

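The genes described here are the metallothioneins and the zinc transporters of CT26 cells, a mouse colon carcinoma line, with the transcription factor that links them. They were chosen by symbol: Mt1, Mt2, Mt3, Mtf1, Slc30a1, Slc30a4, Slc39a1, Slc39a4, Slc39a10 and Slc39a14. Of these 10 genes 9 were measured among 17097 genes, and Mt2 was not analysed here because the annotation used names no probe set for it. Their RNA levels come from 12 Affymetrix mouse arrays in 4 groups of 3. Control (CTR) cells received medium with 1 g/L glucose and 10% serum. Cells under short-term starvation (STS) received 0.5 g/L glucose and 1% serum for 48 hours. The platinum drug oxaliplatin (OXP), which damages DNA, was given in the control medium to the OXP group and in the starvation medium to the STS+OXP group. The sample labels give 10 µM OXP added 24 hours after the change of medium, the text of the study gives other doses as well, and which of them the arrays received is not settled. All groups are the same established line, and no genetic change between them is stated. Since separate cultures are not stated for the 3 arrays of a group, the tests measure the spread between arrays, which may be technical.

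Metallothioneins are small proteins rich in cysteine that bind zinc, copper, cadmium and platinum, and they have been linked to tolerance of platinum drugs. Free zinc in the cell activates the transcription factor MTF-1, encoded by Mtf1, which binds metal response elements near the starts of metallothionein genes and of the zinc exporter gene Slc30a1, and which lowers transcription of the importer gene Slc39a10. Transporters of the SLC30 (ZnT) family move zinc out of the cytosol, either across the plasma membrane or into vesicles, and those of the SLC39 (ZIP) family move it in.

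The starts of Mt1, Slc30a1 and Slc30a4 are shown because the signals of these genes changed and because their sequences hold the core of the metal response element. They come from RefSeq on GRCm38.p6 and are read 5′ to 3′ on the strand of the gene, from 250 bases before an annotated start to 30 bases after it. Capitals mark every match to TGCACNC or TGCGCNC on either strand.
Mt1, chr8:94178839-94179118, plus strand: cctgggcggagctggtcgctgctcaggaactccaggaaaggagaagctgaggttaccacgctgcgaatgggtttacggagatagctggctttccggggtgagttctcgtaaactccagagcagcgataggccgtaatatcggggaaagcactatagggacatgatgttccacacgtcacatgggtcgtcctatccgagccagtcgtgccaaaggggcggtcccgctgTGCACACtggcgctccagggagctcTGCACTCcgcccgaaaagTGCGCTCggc
Slc30a1, chr1:191906531-191906810, plus strand: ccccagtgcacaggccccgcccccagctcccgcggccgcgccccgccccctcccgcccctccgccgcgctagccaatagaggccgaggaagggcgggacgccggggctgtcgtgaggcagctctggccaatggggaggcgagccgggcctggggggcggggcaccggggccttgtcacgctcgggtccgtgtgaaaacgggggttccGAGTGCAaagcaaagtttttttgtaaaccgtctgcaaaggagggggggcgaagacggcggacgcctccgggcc
Slc30a4, chr2:122702634-122702913, minus strand: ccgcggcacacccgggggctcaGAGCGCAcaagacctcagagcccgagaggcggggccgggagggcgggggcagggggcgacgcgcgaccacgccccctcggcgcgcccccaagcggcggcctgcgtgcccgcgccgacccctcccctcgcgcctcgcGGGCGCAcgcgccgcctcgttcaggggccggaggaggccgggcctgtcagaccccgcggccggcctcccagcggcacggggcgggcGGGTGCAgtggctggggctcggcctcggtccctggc
In the window searched, which reaches 50 bases past the start, Mt1 held 3 matches, Slc30a4 held 3 and Slc30a1 held 2, the second of them from 31 to 37 bases after the start and so beyond the printed stretch. Among 32851 mouse promoter windows of 300 bases, 25.7% held at least 1 match, 7.11% at least 2 and 1.97% at least 3. The Mt2 window held 4 matches and that of Mt3 held 1, while those of Mtf1, Slc39a1 and both starts of Slc39a10 held none. Slc39a4 and Slc39a14 had no entry. A match is a description of letters and not of binding. The starts used for Mt1 and Slc30a1 are not their only ones. As annotated these genes begin upstream of them, at 94178883 and 191906697, and the matches of both lie inside the annotated genes. The counts for Mt1 and Slc30a1 therefore hold for these windows alone, and stretches outside them, upstream or downstream, were not searched. On chromosome 8 the 3 metallothionein genes lie in the order Mt3, Mt2 and Mt1, between 94152607 and 94180327.

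The values are log2 signals per probe set that the authors computed with RMA, which removes a background and gives all arrays one distribution. Each gene is represented by the brightest of its probe sets, judged by the mean of all arrays. Groups were compared with two-sided tests in limma, with p-values adjusted by Benjamini-Hochberg over 17097 genes and 0.05 as the threshold for a call. In RNA of whole cultures, a lower level per cell and fewer cells that express a gene cannot be told apart. The signal was treated as background where a group mean did not exceed the highest of 20 bacterial control probe sets, a level that lay between 3.07 and 3.40 on the arrays. The 20 were those of 27 such sets whose mean lay below the median of all probe sets. This choice ties the background to that median, so to exceed it is a weak condition. The OXP group holds a pair of arrays that stood apart. The log2 signal of Gapdh at its 3′ end minus that at its 5′ end was 3.85 on OXP replicate 1 and lay between -0.117 and 0.284 on the other 11. OXP replicate 2 was nearer to the STS+OXP arrays (root mean square difference 0.173, log2) than to the remaining OXP arrays (0.298). The same order held, with a smaller gap, for OXP replicate 3 (0.242 and 0.274), so no OXP array is free of doubt. Calls with OXP were recomputed from the log2 values with replicate 3 as the single OXP array, and the values are given beside each call printed here that was lost. As for the label of colon cancer cells, 3 of 8 epithelial markers (Epcam, Krt8 and Cdx2) exceeded the background and Cdh1 did not. Of 6 mesenchymal markers 4 exceeded it in all groups, and Vim averaged 12.26 in CTR. Of 5 measured lymphocyte markers 4 also exceeded it in all groups, with Cd3e at 4.44 in CTR. A signal a little above this background is therefore no proof that a gene is expressed. Slc39a10 (4.48) and Mtf1 (4.68) lay near that level in CTR.

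The Mt1 signal was higher with OXP in both media, and in the starvation medium alone no change was detected. Mt1 encodes the main metallothionein of most tissues together with Mt2. Its signal was 11.74, 11.76 and 11.79 on the 3 CTR arrays and 11.82, 11.73 and 11.70 on the STS arrays. It was 12.04, 12.08 and 12.09 on the OXP arrays and 12.09, 12.16 and 12.03 on the STS+OXP arrays. All 6 arrays with OXP lay above all 6 arrays without it, and the arrays of CTR and STS overlapped.

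The log2 fold change of Mt1 was 0.31 in OXP relative to CTR (standard error 0.0649, adjusted p = 0.00213, limma), a 1.24-fold rise. In STS+OXP it was 0.33 (standard error 0.0649, adjusted p = 0.00131) relative to CTR and 0.34 (adjusted p = 0.00147) relative to STS. The change in STS was -0.02, with a 95% interval from -0.16 to 0.12, and that of STS+OXP relative to OXP was 0.02 (interval from -0.12 to 0.16). With OXP replicate 3 as the single OXP array, its spread taken from the other groups, the rise in OXP was 0.33 (adjusted p = 0.0165).

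The 2 probe sets of Mt1 agreed in direction and differed in size. The one used has the suffix that marks probes shared by several transcripts, and it lay near the top of the scale, since the highest signal of any probe set was 12.75 to 12.88 on the arrays. The other has no such suffix and averaged 4.65 ± 0.43 (log2, SD, n = 3) in CTR and 4.79 ± 0.02 in STS, against 5.73 ± 0.54 in OXP and 6.05 ± 0.44 in STS+OXP. In a limma fit over all probe sets with 1 symbol its log2 fold change relative to CTR was 1.07 in OXP, with an adjusted p of 0.00956, 1.40 in STS+OXP, with one of 0.00164, and 0.13 in STS, with one of 0.829. Why the sizes differ was not tested. The summed level of 6 macrophage markers was also higher with OXP. It was 7.39 to 7.57 on the log2 scale in CTR, 7.35 to 7.47 in STS, 8.06 to 8.68 in OXP and 7.96 to 8.06 in STS+OXP. Cd14 led this sum, with 7.02 in CTR, 8.19 in OXP and 7.75 in STS+OXP. Cd68 averaged 2.94 in CTR, 4.41 in OXP, where its arrays ran from 3.07 to 5.22, and 3.20 in STS+OXP. Csf1r (3.69 in CTR, 3.63 in OXP and 3.49 in STS+OXP) and Adgre1 (3.71, 3.71 and 3.73) showed no such rise. Lyz2 and Itgam were at background in all groups, and the part of these markers in the Mt1 result was not tested.

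Mt3, the metallothionein of brain, did not exceed the background in any of the 4 groups, whose means ran from 2.95 in STS to 3.04 in CTR. OXP replicate 3, at 3.33, was its highest array. A change of Mt3 was not detectable at this signal, and no fold is given. Mtf1 was above the background, at 4.68 ± 0.15 (log2, SD, n = 3 arrays) in CTR and 4.64 ± 0.12 in STS, and it was 4.63 ± 0.15 in OXP and 4.65 ± 0.10 in STS+OXP. Its groups overlapped throughout, and its log2 fold change relative to CTR was -0.04 (95% interval from -0.26 to 0.18) in STS, -0.05 (from -0.27 to 0.17) in OXP and -0.03 (from -0.25 to 0.19) in STS+OXP. Of a second Mtf1 probe set the CTR mean was 4.40, and it was not called in any comparison either (lowest adjusted p = 0.201).

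**Figure D1:**
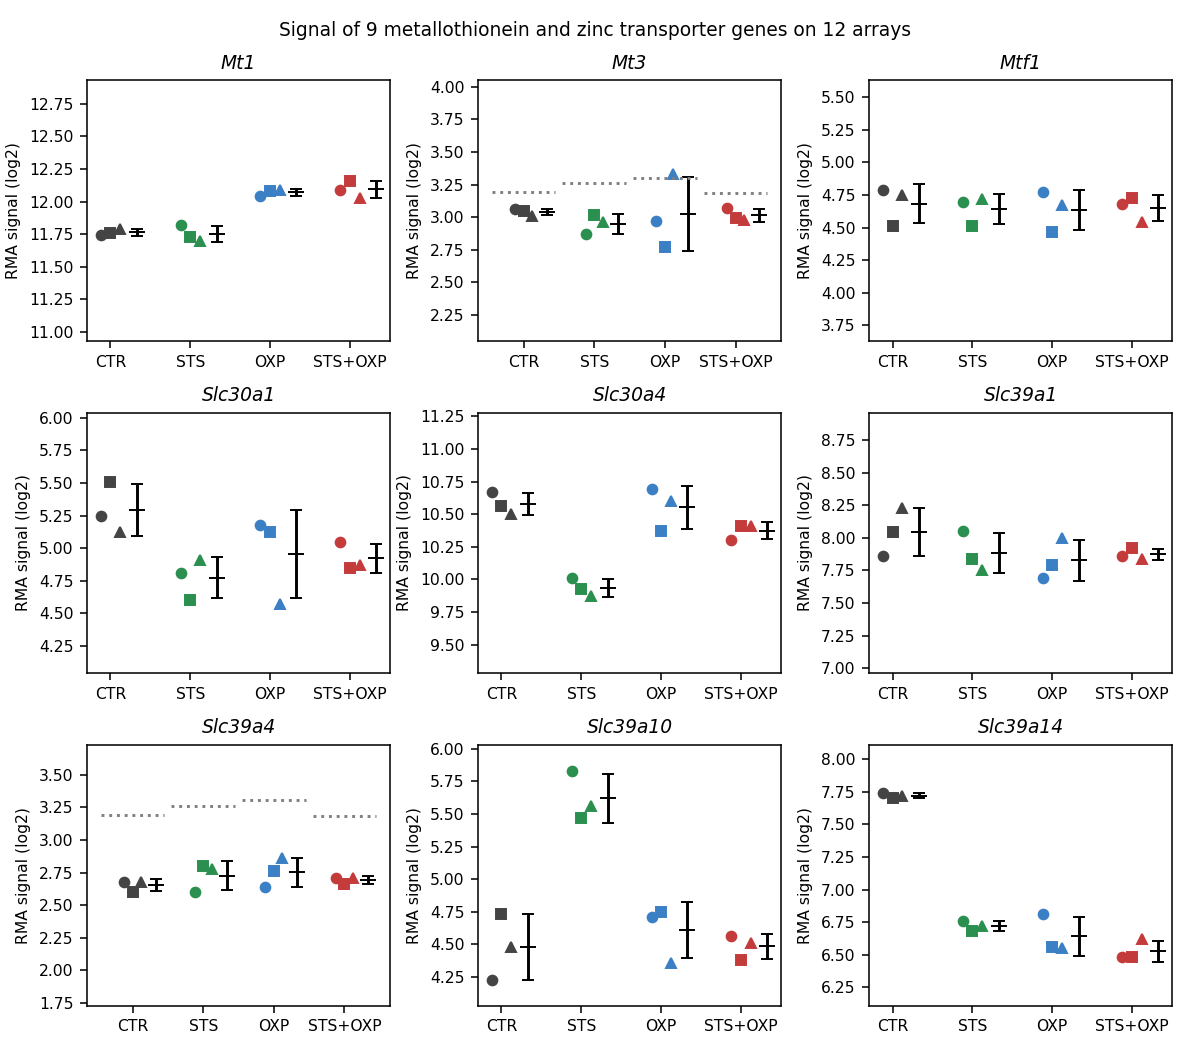
RMA signal (vertical axes, log2, each panel spanning the same range) of the 9 measured genes on each array, by group (horizontal axes). Circles, squares and triangles are replicates 1, 2 and 3, bars are the mean and SD of 3 arrays, and dotted lines in the panels of Mt3 and Slc39a4 are the background of each group; Mt1 is higher on the 6 arrays with OXP, Slc39a10 on the 3 STS arrays, and Slc39a14 on the 3 CTR arrays.

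Both exporter genes of the set were lower in STS, and neither passed in STS+OXP. Slc30a1 encodes ZnT1, the exporter of the plasma membrane. Its signal was 5.25, 5.51 and 5.12 on the CTR arrays, 4.81, 4.60 and 4.91 on the STS arrays, 5.18, 5.12 and 4.57 on the OXP arrays and 5.05, 4.85 and 4.87 on the STS+OXP arrays. The STS arrays lay below all CTR arrays, as did those of STS+OXP, whereas OXP overlapped CTR and held 1 low array, replicate 3. The log2 fold change was -0.52 in STS (standard error 0.151, adjusted p = 0.0319, limma), -0.33 in OXP (adjusted p = 0.122) and -0.37 in STS+OXP (adjusted p = 0.0882).

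Slc30a1 changed call with single arrays. Its fall in STS no longer passed without any 1 of CTR replicates 1 and 2 and STS replicates 1 and 2 (log2 fold changes from -0.54 to -0.41, adjusted p from 0.0741 to 0.132), nor with the unequal-variance test of the methods (adjusted p = 0.155). In OXP it passed without OXP replicate 1 (-0.44, adjusted p = 0.0388) and without OXP replicates 1 and 2 together (-0.72, adjusted p = 0.00221), while without OXP replicate 3 it was -0.14 (adjusted p = 0.462). In STS+OXP it passed without OXP replicate 3 (adjusted p = 0.0212), without the other OXP arrays (adjusted p = 0.0145), in a fit of CTR and STS+OXP alone (adjusted p = 0.02) and after cyclic loess (-0.44, adjusted p = 0.0408). As the average of its probe sets it passed in OXP (-0.39, adjusted p = 0.0221) and in STS+OXP (-0.52, adjusted p = 0.00375). The other probe set of Slc30a1 averaged 5.05 in CTR and 4.32 in STS. In the fit over all probe sets its log2 fold changes were -0.72 in STS, with an adjusted p of 0.0103, -0.67 in STS+OXP, with one of 0.00791, and -0.44 in OXP, with one of 0.0682.

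Slc30a4 encodes ZnT4, which loads zinc into vesicles and whose loss leaves the milk of mice poor in zinc. Its signal was 10.67, 10.56 and 10.50 in CTR and 10.01, 9.93 and 9.87 in STS, without overlap. It was 10.69, 10.37 and 10.60 in OXP, which overlapped CTR, and 10.30, 10.41 and 10.41 in STS+OXP, between STS and CTR. The log2 fold change was -0.64 in STS (standard error 0.0874, adjusted p = 0.000186, limma) and -0.03 in OXP (95% interval from -0.22 to 0.16). In STS+OXP it was -0.21 (adjusted p = 0.0956) relative to CTR and 0.43 (adjusted p = 0.0023) relative to STS. The value relative to CTR passed without OXP replicate 2 (adjusted p = 0.0434), without replicates 1 and 2 (adjusted p = 0.0355), with each array centred on its median (-0.23, adjusted p = 0.0301) and with eBayes with trend and robust (adjusted p = 0.0379).

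Among the importers, Slc39a10 rose in starved cells and did not rise where OXP was added. Slc39a10 encodes ZIP10, an importer of the plasma membrane. Its signal was 4.23, 4.73 and 4.48 on the CTR arrays and 5.83, 5.47 and 5.56 on the STS arrays, which did not overlap. On the OXP arrays it was 4.71, 4.75 and 4.36 and on the STS+OXP arrays 4.56, 4.38 and 4.51, so that both groups with OXP overlapped CTR. The log2 fold change in STS was 1.14 (standard error 0.137, adjusted p = 6.47e-05, limma), a 2.21-fold rise with a 95% interval from 1.80 to 2.71. In OXP it was 0.13 (adjusted p = 0.567, interval from -0.17 to 0.42), while with OXP replicate 3 alone it was -0.12 (adjusted p = 0.681). STS+OXP differed from CTR by less than 0.01 (adjusted p = 0.999, interval from -0.30 to 0.30). STS+OXP relative to STS gave -1.14 for Slc39a10, with an adjusted p of 3.23e-05. A second probe set of Slc39a10 was at background in all groups and gave no measure of the gene, and averaging it with the first gives 0.62 (adjusted p = 0.000194) for STS.

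Slc39a14 fell in all 3 treated groups. It encodes ZIP14, which imports zinc, iron and manganese. Its signal was 7.74, 7.70 and 7.72 on the CTR arrays, 6.76, 6.68 and 6.72 in STS, 6.81, 6.56 and 6.55 in OXP and 6.48, 6.48 and 6.62 in STS+OXP. No treated array reached a CTR array. The log2 fold changes were -0.997 in STS (standard error 0.0803, adjusted p = 1.75e-06, limma), -1.08 in OXP (adjusted p = 1.98e-07) and -1.19 in STS+OXP (adjusted p = 7.45e-08). The change in OXP without its replicates 1 and 2 was -1.17 (adjusted p = 4.11e-07). STS+OXP lay below STS by -0.19 without passing (adjusted p = 0.109). That difference passed without OXP replicate 1 (adjusted p = 0.0423), without OXP replicates 1 and 2 together (adjusted p = 0.041), with array quality weights (-0.18, adjusted p = 0.0424) and with median centring (-0.23, adjusted p = 0.0333).

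The 2 dimmer probe sets of Slc39a14 were also lower in the treated groups, by smaller amounts. The one with a CTR mean of 4.53 had log2 fold changes of -0.51 (adjusted p = 0.0489) in STS, and in OXP and STS+OXP of -0.31 and -0.25 (adjusted p = 0.186 and 0.297). The one with a CTR mean of 3.60 was above background in CTR and STS+OXP and not in the other groups, so its log2 fold changes of -0.41 in STS and -0.42 in OXP are limited by the background. With the average of all probe sets Slc39a14 gave -0.64 in STS and -0.60 both in OXP and in STS+OXP, all of which passed (highest adjusted p = 0.000124).

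Slc39a1, which encodes the importer ZIP1 of the plasma membrane, had a log2 signal of 8.04 ± 0.18 (SD, n = 3) in CTR and 7.88 ± 0.15 in STS, and it was 7.83 ± 0.16 in OXP and 7.87 ± 0.04 in STS+OXP. The groups overlapped, and the log2 fold changes were -0.17 (95% interval from -0.40 to 0.07) in STS, -0.22 (from -0.45 to 0.02) in OXP and -0.17 (from -0.41 to 0.06) in STS+OXP. With array quality weights the values in STS (-0.265, adjusted p = 0.0404) and in STS+OXP (-0.256, adjusted p = 0.0415) passed. Slc39a4, which encodes ZIP4, the importer through which the gut takes up zinc, was at background in every group, with means from 2.65 in CTR to 2.75 in OXP.

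**Figure D2:**
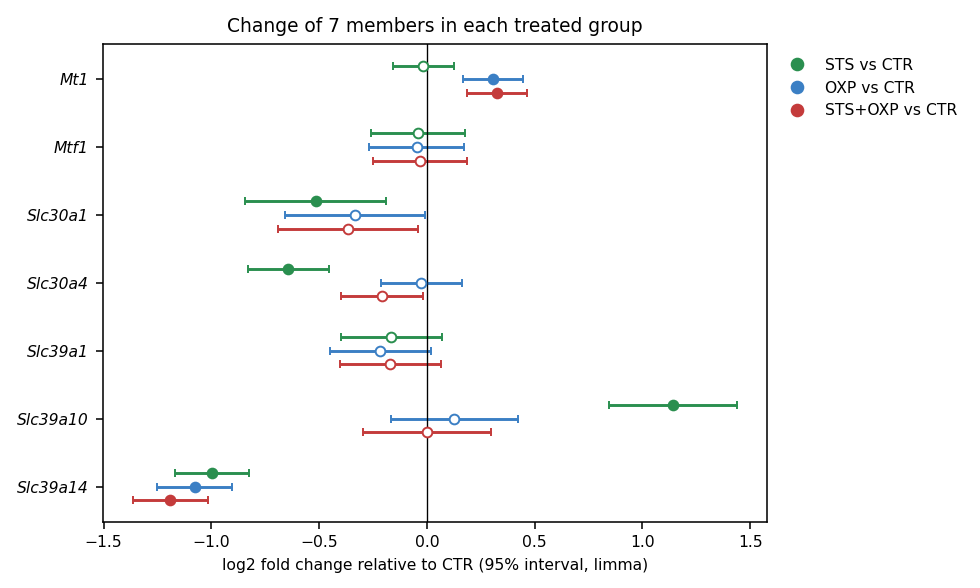
Log2 fold change relative to CTR (horizontal axis) of the 7 genes above background, with 95% intervals from limma; filled points passed at an adjusted p under 0.05. The 3 intervals of Slc39a14 lie below 0 and close together, those of Mt1 lie above 0 only in the groups with OXP, and that of Slc39a10 lies above 0 only in STS.

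Counted over the 9 measured genes, 4 were called in STS relative to CTR, with Slc39a10 higher and Slc30a1, Slc30a4 and Slc39a14 lower, where 16.5% of all genes were called, 9.75% higher and 6.74% lower. In OXP 2 were called, Mt1 higher and Slc39a14 lower, against 31.4% of all genes (17.5% higher, 13.9% lower), and the same 2 in STS+OXP, against 30.6% (16.4% higher, 14.2% lower). Between STS+OXP and STS 3 were called, Mt1 and Slc30a4 higher and Slc39a10 lower in STS+OXP, against 22.0% (10.8% higher, 11.2% lower). Between STS+OXP and OXP limma called 0 of the 9, with 0 at an unadjusted p under 0.05. The unequal-variance test of the methods also called 0 of the 9. Of all genes limma called 0.0117% (0.00585% higher, 0.00585% lower). That share depended on OXP replicate 2, the array nearer to STS+OXP than to the remaining OXP arrays. Without OXP replicate 2 limma called many more of all genes between STS+OXP and OXP, and still 0 of the 9. Leaving out OXP replicate 1 or 3 alone made no such difference. The low share is therefore no proof that the medium changed little in cells with OXP. Among the 7 genes above background, the lowest adjusted p of that comparison under any setting was 0.0662, for Slc30a4 without OXP replicate 2 (log2 fold change -0.27). The median log2 fold change of the 9 genes was -0.09 in STS (-0.03 over all genes), -0.03 in OXP (-0.01) and -0.03 in STS+OXP (0.00). The comparisons with CTR share the 3 CTR arrays.

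The interaction, which is the effect of STS in the presence of OXP minus its effect without OXP, was called for 3 of the 9 genes, 2 above 0 and 1 below, against 8.29% of all genes (2.53% above 0, 5.76% below). For Slc39a10 it was -1.27 on the log2 scale (standard error 0.194, adjusted p = 0.0011, limma): STS changed the gene by 1.14 without OXP and by -0.13 with it. For Slc39a14 it was 0.88 (standard error 0.114, adjusted p = 0.000257), with STS effects of -0.997 without OXP and -0.11 with it. For Slc30a4 it was 0.46 (standard error 0.124, adjusted p = 0.0358), with STS effects of -0.64 and -0.18. That of Slc30a4 did not pass without any 1 of CTR replicates 1 and 2, the STS arrays and STS+OXP replicates 2 and 3 (0.415 to 0.497, adjusted p from 0.0512 to 0.0978), nor without OXP replicates 1 and 2 together (adjusted p = 0.055). Slc30a1 had 0.48 (adjusted p = 0.212), which passed without OXP replicates 1 and 2 together (0.87, adjusted p = 0.00945). For Mt1 the interaction was 0.04, with a 95% interval from -0.16 to 0.24.

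**Figure D3:**
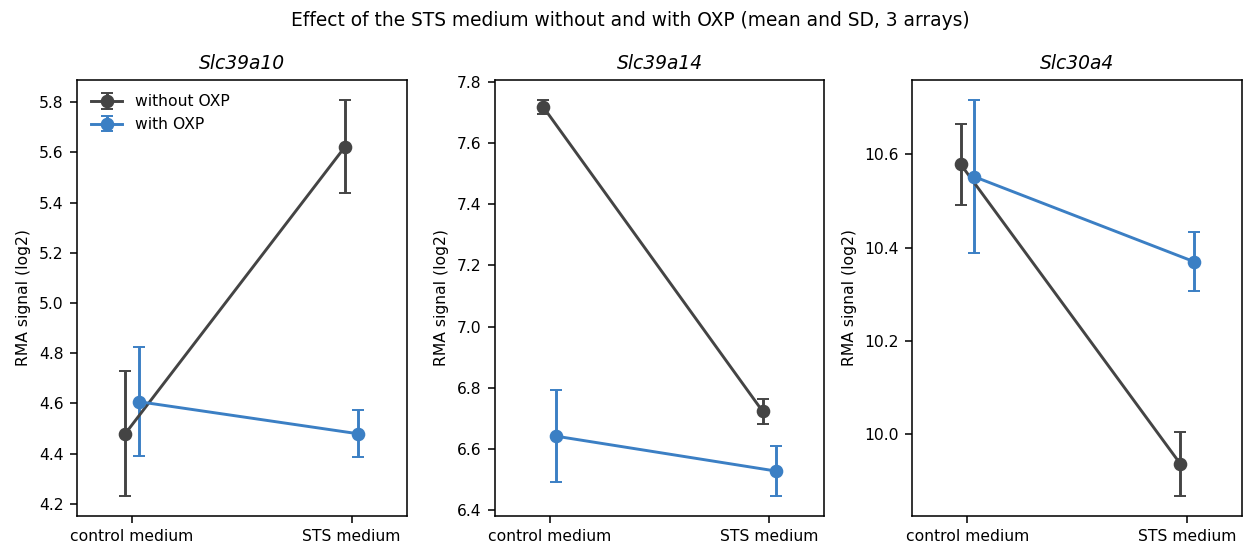
Mean RMA signal and SD of 3 arrays (vertical axes, log2, ranges differ between panels) of Slc39a10, Slc39a14 and Slc30a4 in the control and STS media, without OXP (black) and with OXP (blue). The lines of Slc39a10 go from 4.48 to 5.62 without OXP and from 4.61 to 4.48 with it, and those of Slc39a14 from 7.72 to 6.72 and from 6.64 to 6.53.

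**Figure D4:**
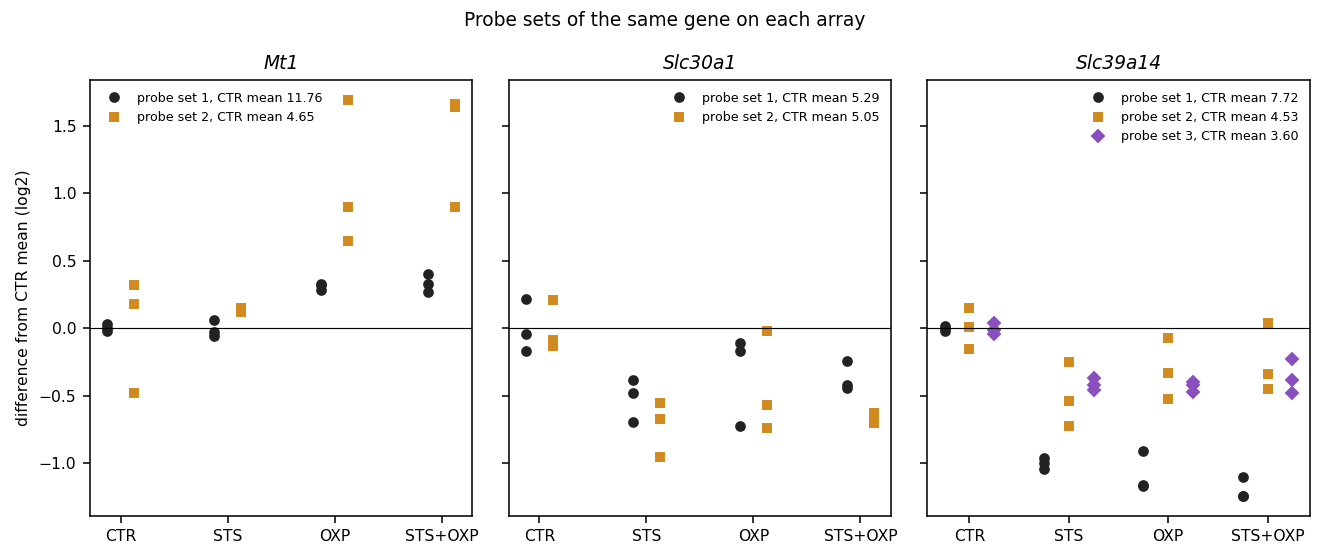
Difference of each array from the CTR mean (vertical axis, log2) for all probe sets of Mt1, Slc30a1 and Slc39a14 with 1 symbol, by group; the legend gives the CTR mean of each probe set. The probe sets of a gene have the same direction in most groups, and for Mt1 the dimmer set changed more (1.07 against 0.31 in OXP), for Slc39a14 less (-0.31 and -0.42 against -1.08).

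With the rest of both families, 24 zinc transporter genes were measured. In STS 3 were higher and 5 lower, in OXP 2 were higher and 4 lower, and in STS+OXP 2 were higher and 3 lower, against 16.5%, 31.4% and 30.6% of all genes called, with medians of -0.14, -0.02 and -0.08 on the log2 scale. With OXP replicate 3 as the single OXP array, 3 were higher and 5 lower in OXP, where 28.8% of all genes were called, and 3 were higher and 6 lower in STS+OXP, where 36.1% were. Among the 8 further ZnT genes 1 was called in each of these comparisons, Slc30a5, whose product loads zinc in the early secretory pathway. The log2 signal of Slc30a5 was 7.73 ± 0.10 (SD, n = 3) in CTR. Its log2 fold changes were -0.485 in STS, -0.718 in OXP and -0.705 with both, at adjusted p of 0.00203, 2.64e-05 and 3.11e-05 in limma.

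Among the 10 further ZIP genes, Slc39a8 was the one that rose most. It encodes ZIP8, which shares its cargo of zinc, iron and manganese with ZIP14. Its signal averaged 4.44 ± 0.29 (SD, n = 3) in CTR against 5.49 ± 0.10 in STS, 5.41 ± 0.34 in OXP and 5.44 ± 0.23 with both, with log2 fold changes of 1.05 (adjusted p = 0.000884), 0.97 (adjusted p = 0.000539) and 1.00 (adjusted p = 0.000433). Slc39a14 fell by 0.997 to 1.19 in the same groups in which Slc39a8 rose by 0.97 to 1.05, and the interaction of Slc39a8 was -1.02 (adjusted p = 0.0206). That interaction did not pass with OXP replicate 3 alone (-0.75, adjusted p = 0.0667). Slc39a11 fell with OXP, by 1.16 (adjusted p = 1.61e-06) in OXP and by 1.06 (adjusted p = 3.79e-06) in STS+OXP, and in STS it was at -0.145 with an adjusted p of 0.444. Slc39a9 rose in all 3 groups by 0.23 to 0.45, Slc39a13 was lower in STS (-0.35, adjusted p = 0.0174), and Slc39a7 was lower in OXP (-0.39, adjusted p = 0.0231), though not with OXP replicate 3 alone (-0.285, adjusted p = 0.0502).

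**Figure D5:**
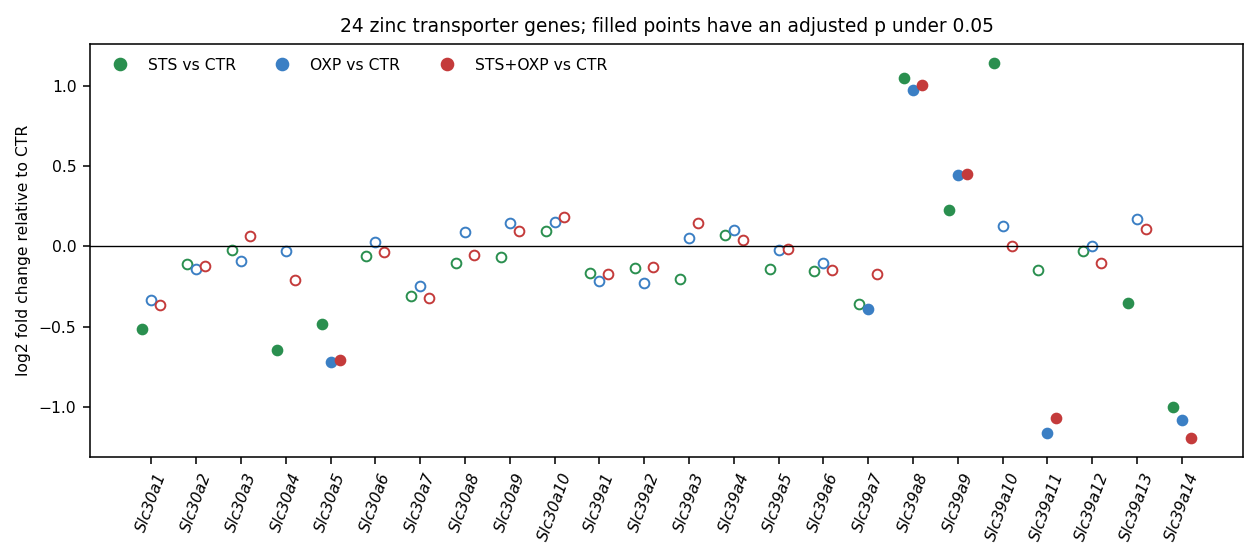
Log2 fold change relative to CTR (vertical axis) of all 24 measured zinc transporter genes (horizontal axis) in STS (green), OXP (blue) and STS+OXP (red); filled points passed at an adjusted p under 0.05. Slc39a8 lies near 1 and Slc39a14 near -1 in every group, Slc39a10 is high in STS alone, and Slc39a11 is low in the groups with OXP.

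Of 5 other genes known to respond to MTF-1, 1 was lower in STS and 2 were lower and 1 higher in OXP and in STS+OXP, where 16.5%, 31.4% and 30.6% of all genes were called. Ndrg1, a stress-induced gene that also responds to hypoxia, had log2 fold changes of -1.69 in STS, -1.30 in OXP and -1.83 with both (adjusted p = 7.38e-05, 0.000206 and 9.45e-06, limma). Selenow, a small selenoprotein, had -0.66 in OXP and -0.76 in STS+OXP (adjusted p = 0.00954 and 0.00392), and with OXP replicate 3 alone the value in OXP was -0.22 (adjusted p = 0.421). Pgf, a growth factor of the VEGF family, rose by 0.47 (adjusted p = 0.0117) in OXP and by 0.58 (adjusted p = 0.00291) in STS+OXP. The Pgf signal was low, with means of 3.59 in CTR, 4.06 in OXP and 4.16 in STS+OXP. These lie below that of the lymphocyte marker Cd3e in CTR (4.44), so expression of Pgf is not certain. The median of the 5 genes was -0.48 both in STS and in STS+OXP and -0.56 in OXP.

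Copper, which metallothioneins also bind, is handled by 11 measured genes, of which 1 was higher and 1 lower in STS, 4 were higher and 3 lower in OXP, and 4 were higher and 2 lower in STS+OXP, against 16.5%, 31.4% and 30.6% of all genes. Slc31a1, the copper importer CTR1, had log2 fold changes of -0.37 both in STS and in OXP and -0.55 in STS+OXP (adjusted p = 0.0124, 0.00633 and 0.000302, limma), and its value in OXP did not pass with OXP replicate 3 alone (-0.31, adjusted p = 0.0505). Atp7a, a copper-exporting ATPase, rose by 0.42 (adjusted p = 0.0209) in STS and by 0.49 (adjusted p = 0.00386) in STS+OXP. Ccs, the chaperone that hands copper to superoxide dismutase, rose by 0.69 (adjusted p = 1.77e-05) in OXP and by 0.62 (adjusted p = 4.39e-05) in STS+OXP. Commd1, a protein of copper homeostasis, had -0.68 in OXP and -0.86 in STS+OXP (adjusted p = 0.000149 and 1.77e-05). The median of the list was -0.10 in STS, against 0.16 in OXP and 0.10 in STS+OXP.

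Over the 12 arrays, the genes with a pattern most like that of Mt1 among 8547 compared were Scmh1 (Pearson r = 0.981), Rtkn (r = 0.978) and Tcea3 (r = 0.978). For Slc30a1 they were Ift20 (r = 0.874), Tmem50b (r = 0.873) and Tbcb (r = 0.866), and for Slc39a10 they were Ube2e3 (r = 0.972), Rnf19b (r = 0.967) and Pds5b (r = 0.966). These correlations describe arrays that fall into 4 groups, and they share the arrays and their normalization. The mean log2 signal of Scmh1 was 5.91 in CTR and 5.80 in STS, against 7.10 in OXP and 7.07 with both. That of Pds5b was 7.08 in STS and between 6.24 and 6.31 in the other groups.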

How the data were processed

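RNA of CT26 cells was measured on 12 Affymetrix mouse 3′ arrays, 3 for each of 4 groups taken from the sample titles. The deposited values are on the log2 scale, made by the authors with RMA in R 3.02 according to the submitters' processing notes. They were used without further normalization, and RMA's own steps were not repeated from single probes. Of 45141 probe sets, 28898 had 1 gene symbol, 551 several and 15588 none, and 104 were controls. The brightest probe set, by its mean, stood for each of 17097 genes. limma 3.58.1 in R 4.3.3 fitted 4 group means (8 residual degrees of freedom, prior 5.05), with Benjamini-Hochberg adjustment. A trial of this model on simulated data had independent noise and changes in STS alone, so it says nothing of the doubted OXP arrays. The number of arrays limits the precision.

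All 10 genes are named, with the 3 genes most like Mt1, Slc30a1 and Slc39a10. From each further list (ZnT, ZIP, copper, MTF-1 targets, iron, glucocorticoid-induced) up to 4 called genes per comparison were selected. Of those selected, Atox1, Cox17, Slc31a2, Aco1 and Ftl1 were counted with their lists and their values are not described. Members and lists were chosen with earlier results of these data known. Alternatives covered normalization, probe sets, filters, the fit, the unequal-variance test of the methods, a replicate block and arrays left out, and for the further lists the fit without OXP replicates 1 and 2 was added after seeing the data.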

Additional observations from a re-analysis of the deposited data

Results flagged for a closer look

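For 3 genes the effect of STS differed between cells with and without OXP by a test of the interaction in limma. The STS effect with OXP minus that without it was -1.27 on the log2 scale for Slc39a10 (adjusted p = 0.0011), 0.88 for Slc39a14 (adjusted p = 0.000257) and 0.46 for Slc30a4 (adjusted p = 0.0358). Of 22 alternatives, the first passed under 22, the second under 22 and the third under 14. The groups hold 3 arrays each, too few for a test of single outlying arrays.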

How the results depend on the processing

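Over 994 recomputed log2 fold changes of the 7 genes above background, 960 kept their call, 15 no longer passed, 19 passed anew, and no called value changed sign. In 52 cases a value that passed neither way had another sign. Of 148 recomputed counts of called genes 139 stayed within 1.5 times the main one. Many settings could not change a given log2 fold change, such as leaving out an array of a group outside the comparison. The counts that stayed include those between STS+OXP and OXP, where no gene of the set was called under any setting, and changes from 2 to 3. These numbers therefore overstate how stable the results were. With the unequal-variance test of the methods, 2 of the 9 genes were called in STS and 1 in OXP relative to CTR; there Slc30a1 in STS had an adjusted p of 0.155, Slc39a10 in STS one of 0.0656 and Slc39a14 in OXP one of 0.0649. Without OXP replicates 1 and 2 together, 4 were called in OXP and 4 in STS+OXP relative to CTR, including, in OXP, Mt3 (0.29, adjusted p = 0.0318), which is at background. With a fold of at least 2 as a further condition, 1 was called in each of STS, OXP and STS+OXP relative to CTR, 1 in STS+OXP relative to STS and 1 in the interaction. Probe sets without a suffix gave Mt1 a log2 fold change of 1.07 in OXP and 1.40 in STS+OXP. The causes were not tested.

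The replicate numbers did not pair the arrays: the correlation of deviations between arrays of the same number ran from -0.199 to 0.102 over 18 pairs, of which 1 was over 0.1. With the replicate block the counts of called genes relative to CTR were 4 in STS and 2 each in OXP and STS+OXP, 0 between STS+OXP and OXP, 3 between STS+OXP and STS and 3 in the interaction, as without it. The interaction has no unequal-variance test of 2 groups and always uses all arrays, so neither alternative was run for it. Mt3 and Slc39a4 did not exceed the background, where a change could not be measured.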

Other observations

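Iron, which ZIP14 and ZIP8 also carry, is handled by 8 listed genes, of which 6 were measured. In STS 1 was higher and 1 lower, in OXP 1 was higher and 3 lower, and in STS+OXP 2 were lower and none higher, against 16.5%, 31.4% and 30.6% of all genes called, with medians of 0.01, -0.22 and -0.23. Tfrc, the transferrin receptor, had log2 fold changes of 0.54 in STS, -1.72 in OXP and -1.38 with both (adjusted p = 0.0113, 2.38e-07 and 1.83e-06, limma). Hmox1, the haem oxygenase, had -2.02 in STS, -0.96 in OXP and -1.66 with both (adjusted p = 3.12e-05, 0.00383 and 4.55e-05). Fth1, the ferritin heavy chain, rose by 0.22 (adjusted p = 0.0342) in OXP, which did not pass with OXP replicate 3 as the single OXP array (adjusted p = 0.155). On that array Hmox1 in OXP was at -0.64 (adjusted p = 0.00111).

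Glucocorticoids also raise metallothionein transcription, and of 7 genes that they induce 3 were higher in STS, 2 were higher and 1 lower in OXP, and 4 were higher and 2 lower in STS+OXP, against the same 16.5%, 31.4% and 30.6% of all genes, with medians of 0.27, 0.09 and 0.40. Dusp1, a phosphatase of MAP kinases, rose by 1.83 (adjusted p = 2.71e-06, limma) in STS and by 2.82 (adjusted p = 9.59e-09) in OXP, and Sgk1, a kinase, by 1.09 (adjusted p = 0.000111) and 2.03 (adjusted p = 9.44e-08). Fkbp5, a chaperone of the glucocorticoid receptor, had 0.39 in STS and -1.01 both in OXP and in STS+OXP (adjusted p = 0.00823, 9.2e-07 and 9.47e-07). In STS+OXP Dusp1 rose by 2.855 (adjusted p = 8.65e-09) and Sgk1 by 2.01 (adjusted p = 1.02e-07), 2 of the 4 genes that were higher there. Tsc22d3, also of this list, had -0.64 in STS+OXP (adjusted p = 0.00184). It was not called in STS (-0.13, adjusted p = 0.598) or in OXP (-0.33, adjusted p = 0.0775).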
